A study of Bos taurus with 2 samples.

Results

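The genes described here are 39 genes that dividing cells use to copy their DNA and to separate the copies: cyclins and their kinases, origin licensing factors, DNA synthesis enzymes, and proteins of the centromere, spindle, checkpoint and mitotic exit. They were chosen by name, and a probe belonged to a gene where the gene symbol in the file, or the current symbol of the sequence record it names, was that of the gene. The array carried 80 probes for 35 of the 39 genes, among 43653 probes and 16954 named genes in all. MKI67, TOP2A, CENPA and MCM2 had no probe under this rule. Of the 35 genes, 29 (82.9%) were well above background on both arrays, and the same was true of 12244 of all 16954 genes (72.2%).

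Mammary gland tissue of female Chinese Holstein cows in late lactation was compared on 1 array labelled mastitis and 1 array labelled normal, whose stage is given as healthy, each hybridised with cyanine-3-labelled RNA. The study describes 3 cows per group with tissue taken after slaughter and does not say which cow each array holds. Antibiotics were used in the diseased cows but not in the healthy ones, and the effects of disease and antibiotics therefore cannot be told apart. With 1 array per condition no difference between cows could be tested, and every ratio compares these arrays. The study describes the cows as adult and the clinical mastitis as an infection by gram-negative bacteria. The labels and the text of the study name different RNA reagents, and they and the file headers name different array makers and software. The spots follow the headers, which describe a bovine Agilent design and GenePix Pro 6.1 as the scanner software.

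A cell that enters division first loads the MCM helicase onto its replication origins, with CDC6 and CDT1 as loaders and geminin as the brake that stops a further round. Enzymes of nucleotide supply and the sliding clamp PCNA then serve DNA synthesis. Cyclin B with CDK1 opens mitosis, the aurora and polo kinases and the checkpoint kinases order the chromosomes on the spindle, and the anaphase-promoting complex with CDC20 ends it by marking securin and cyclin B for degradation. In the mammary gland, most milk cells in late lactation no longer divide, and dividing cells can be epithelial, stromal or immune. The tissue was measured in bulk, so fewer cells of a type and less RNA per cell cannot be told apart.

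The licensing and DNA synthesis genes were mostly well measured and most lay above the middle of all genes, while the cyclin, kinase and mitosis genes were mostly dim and most lay below it. The net signal is the spot intensity after the scanner software subtracted its background. The log2 ratio is mastitis over normal after division by the 75th percentile of each array, 210 for mastitis and 128 for normal, so that equal net signals give a log2 ratio of -0.71. The median log2 ratio of the 29 measured genes was -0.33, against -0.15 for all 12244 measured genes, and 19 of the 29 lay below that -0.15. At least 2-fold lower in mastitis were 3 of the 29 (10.3%), CDC20, CCNE1 and AURKB, and 9.14% of all measured genes were as low. None of the 29 was at least 2-fold higher, where 2.26% of all measured genes were. At 1.5-fold, 10 were lower and 2 higher, against 21.5% and 7.65% of all measured genes, and at 3-fold none was in either direction, against 3.3% and 0.547%. The share that was 2-fold lower is near that of the whole array and is no result about these genes. A technical error is given with each log2 ratio below. It combines the spread of the negative controls and of replicate spots over the probes of a gene, ranged from 0.078 to 0.53, and holds neither differences between cows nor the disagreement between probes, whose pooled SD was 0.51 over the 13 genes with several measured probes. Of the 80 probes, 48 were well above background on both arrays, 6 in mastitis alone and 3 in normal tissue alone. Some genes have further probes, well above background on neither array, that are not named.

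**Figure D1:**
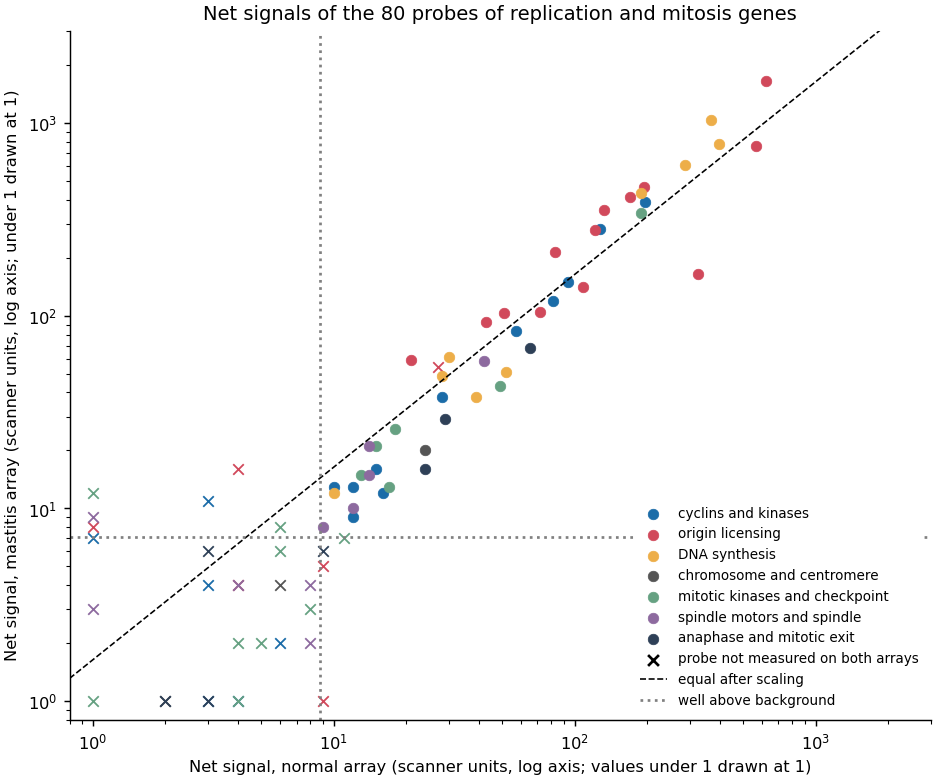
Net signal on the mastitis array (vertical axis) against the normal array (horizontal axis) of the 80 probes in scanner units on log axes, coloured by the role of the gene, with values under 1 drawn at 1. Dotted lines mark the thresholds of 7.10 (mastitis) and 8.74 (normal) above which a probe was well above background, crosses are the probes not measured on both arrays, and the dashed line joins equal scaled signals. Most licensing and DNA synthesis probes lie at the bright end, and 1 MCM4 probe at 164 and 326 lies far below the line.

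Of 9 origin licensing genes, 8 had a probe and 6 were measured, with a median log2 ratio of 0.30, and none was 2-fold apart. MCM7, a helicase subunit, was the highest of all 29 genes, with net signals of 1656 (mastitis) and 623 (normal) and a log2 ratio of 0.70 ± 0.17 (technical error, 1 probe). Its other probe, at 16 and 4, was above background in mastitis alone. GMNN, which encodes geminin, had net signals of 214 and 83 for 1 probe and 355 and 132 for the other, and a log2 ratio of 0.68 ± 0.12. Both probes gave nearly the same ratio, with an SD of 0.043. MCM3 had 103 and 51 for its brighter probe and 59 and 21 for the other, with a log2 ratio of 0.54 ± 0.16. Its remaining 2 probes were each just above the threshold on a single array.

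MCM4 split by probe. On 4 of its 5 probes the log2 ratios lay between 0.40 and 0.58, with net signals of 464 and 193 on the brightest of them. The fifth read 164 (mastitis) and 326 (normal), a log2 ratio of -1.71. The mean over the 5 probes was 0.06 and the median was 0.50, so the value of MCM4 rests on how its probes are joined. MCM5 was the helicase subunit nearest to the middle of all genes, at 764 and 563 on its brighter probe and -0.22 ± 0.12 over its 2 measured probes. Its other probe, at 5 and 9, was above background in normal tissue alone. CDT1, the loader that geminin holds back, had net signals of 141 and 108 and a log2 ratio of -0.33 ± 0.17. CDC6, the other loader, read 4 on both arrays and was not well above background on either. MCM6 had net signals of 54 and 27, but the scanner software marked its spot as not found on both arrays, so no ratio is given.

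Ratios of genes on the same arrays can be set against each other without the scaling between arrays. GMNN exceeded CDT1 by 1.01 ± 0.21 on the log2 scale, the technical errors of both combined. MCM7 exceeded MCM5 by 0.92 ± 0.21 and MCM3 exceeded MCM5 by 0.76 ± 0.20. These differences between helicase subunits are larger than their technical errors. The errors leave out the disagreement between probes (pooled SD 0.51), and MCM7 rests on 1 probe. The pairs were picked after their values were seen and are given as a description.

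All 4 DNA synthesis genes were measured, with a median log2 ratio of 0.36. RRM1, the large subunit of ribonucleotide reductase, which makes deoxyribonucleotides, had net signals of 1043 and 368 on its brighter probe and 610 and 286 on the other. Its log2 ratio was 0.58 ± 0.12. RRM2, the small subunit that is made in S phase, lay on the other side of the middle. Its 3 probes read 38 and 39, 51 and 52, and 12 and 10, which is nearly equal on the arrays before scaling and -0.65 ± 0.20 after it. The difference between RRM1 and RRM2 was 1.23 ± 0.23, the widest of the 7 pairs computed. TYMS, which makes thymidylate, had 436 and 189 and a log2 ratio of 0.49 ± 0.17. PCNA, the sliding clamp, had 780 and 397 on its brightest probe, and 61 and 30 and 49 and 28 on the other two. Its log2 ratio was 0.22 ± 0.12, with an SD of 0.11 over the 3 probes.

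**Figure D2:**
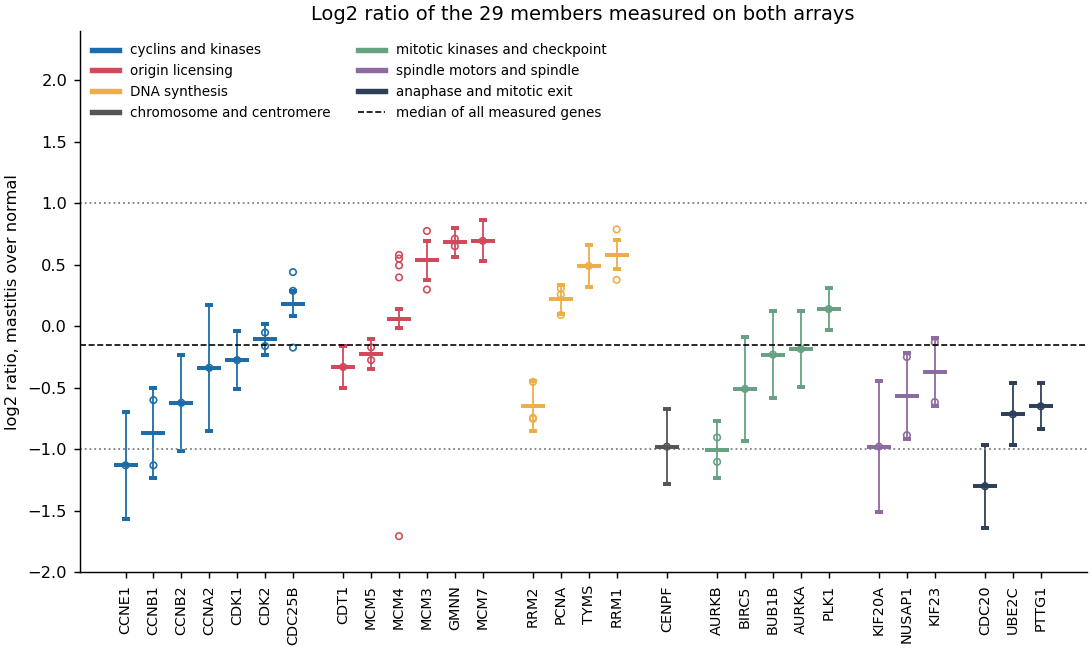
Log2 ratio of mastitis over normal (vertical axis) for each of the 29 measured genes (horizontal axis), grouped by role. Bars are the mean over the probes of a gene, whiskers the technical error and open circles single probes, with the median of all measured genes (-0.15) dashed and 2-fold differences dotted. From CDC20 at -1.30 to MCM7 at 0.70, no gene passed 2-fold upward and 3 passed it downward.

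The cyclins and kinases had a median log2 ratio of -0.34 over 7 measured genes of 8. CCNE1, the cyclin that starts S phase with CDK2, read 12 (mastitis) and 16 (normal), a log2 ratio of -1.13 ± 0.44 on 1 probe (2.19-fold lower). CCNE2, its close relative, read 11 (mastitis) and 3 (normal) and was above background in mastitis alone, too dim for a bound on its ratio. CDK2 itself was well measured, with 149 and 94 and 119 and 81 on its 2 probes and a log2 ratio of -0.10 ± 0.12. CDK2 exceeded CCNE1 by 1.02 ± 0.45.

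The cyclins of mitosis were all close to background. CCNB1, a cyclin B, read 9 and 12 on 1 probe and 13 and 12 on the other, with a log2 ratio of -0.86 ± 0.37. CCNB2 read 16 and 15 (-0.62 ± 0.39). CCNA2, the cyclin of S phase and early mitosis, read 13 and 10 (-0.34 ± 0.51). A few scanner units decide these ratios, and that of CCNA2 is smaller than its own error. CDK1, the kinase of cyclin B, read 38 and 28 with a log2 ratio of -0.27 ± 0.24, and exceeded CCNB1 by 0.59 ± 0.44. CDC25B, the phosphatase that activates CDK1, was the highest of this group at 0.19 ± 0.10, but its 3 measured probes differed in sign. They read 391 and 195, 283 and 127, and 83 and 57, with log2 ratios of 0.29, 0.44 and -0.17.

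Of the chromosome and centromere genes, CENPF alone had a probe. CENPF is a kinetochore protein that accumulates before mitosis. It read 20 and 24, a log2 ratio of -0.98 ± 0.30, and its other 2 probes were not above background on either array. Since MKI67 and TOP2A were without a probe here, the pair of markers most often used for dividing cells adds no value to the comparison.

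The mitotic kinases and checkpoint genes had a median log2 ratio of -0.23 over 5 measured genes of 7. AURKB, the aurora kinase of the chromosomal passenger complex, read 43 and 49 on 1 probe and 13 and 17 on another, and 1 on both arrays on a probe that was not found. The log2 ratios of the 2 measured AURKB probes were -0.90 and -1.10. Their mean was -1.002 ± 0.23 (2.003-fold lower), just past the 2-fold limit, which the brighter probe alone did not pass. BIRC5, which encodes survivin of the same complex, read 15 and 13 (-0.51 ± 0.43). AURKA, the aurora kinase of the spindle poles, read 26 and 18 (-0.18 ± 0.31). PLK1, the polo kinase that acts from mitotic entry to exit, was the bright exception with 342 and 189, a log2 ratio of 0.14 ± 0.17. PLK1 exceeded AURKB by 1.14 ± 0.28.

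BUB1B, a checkpoint kinase that restrains CDC20, read 21 and 15 with a log2 ratio of -0.23 ± 0.36. Another BUB1B probe, at 8 and 6, was above background in mastitis alone. BUB1, a checkpoint kinase at the kinetochore, was above background on each array with a different probe. The probes read 12 and 0, 7 and 11, and 6 and 6, so no ratio could be formed. TTK, the kinase that starts the checkpoint, read 2 and 4 and was not well above background on either array.

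The spindle genes had a median log2 ratio of -0.57 over 3 measured genes of 4, and all 3 were dim. KIF20A, a kinesin of cell separation, read 10 and 12 (-0.98 ± 0.53). NUSAP1, which bundles spindle microtubules, read 58 and 42 on 1 probe and 8 and 9 on the other, with log2 ratios of -0.25 and -0.88 and a mean of -0.57 ± 0.35. KIF23, a kinesin of the central spindle, read 21 and 14 and 15 and 14 (-0.37 ± 0.28). Its other probe, at 9 and 1, was above background in mastitis alone. KIF11, the kinesin that pushes the spindle poles apart, had 4 probes, none of which read above 4 in mastitis or above 8 in normal tissue. It was not well above background on either.

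The 3 genes of anaphase and mitotic exit were measured and had a median log2 ratio of -0.71. CDC20, the activator of the anaphase-promoting complex, was the lowest of all 29 genes. It read 16 (mastitis) and 24 (normal), a log2 ratio of -1.30 ± 0.34 (2.46-fold lower), on 1 probe of 3. Neither array had a signal well above background on the other 2 probes. UBE2C, the ubiquitin-conjugating enzyme of that complex, read 29 on both arrays, so its -0.71 ± 0.25 is the scaling between the arrays alone. PTTG1, which encodes securin, read 68 and 65 (-0.65 ± 0.19).

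Joined after the values were seen, the 10 licensing and DNA synthesis genes had a median log2 ratio of 0.36 and 7 of them were above the middle. The other 19 had a median of -0.57 and 16 of them were below it. Without any scaling the medians were 1.07 and 0.15, with that of all genes at 0.56, so the cyclin, kinase and mitosis genes were below the middle but above 0.

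Signal over background went along with this split. Net signals of different probes are not levels of expression and serve here only to show how near to background a ratio was measured. The median net signal, as the geometric mean of the arrays, was 203 for the 10 genes and 21.6 for the 19, of which 15 were under 50. Among all measured genes under 20 the median log2 ratio was -0.55 and 19.9% were at least 2-fold lower, and the 9 of the 29 genes in that class had a median of -0.62. Between 20 and 50 the medians were -0.19 for all genes and -0.61 for the 8 genes there. Between 50 and 200 they were -0.05 and 0.04 (6 genes), and between 200 and 1000 they were -0.06 and 0.14 (5 genes). At 1000 or more, all genes had a median of -0.31 and MCM7 was the only one of the 29. Set against the median of all genes in their own signal class, 12 of the 19 genes were below it and 7 above. Their median difference from it was -0.09. Of the 10 licensing and DNA synthesis genes, 7 were above the median of their class and 3 below, with a median difference of 0.48. The negative control probes had a mean net signal of 1.95 (normal) and 0.013 (mastitis). With those means set to 0 on both arrays, the medians under 20 became -0.33 for all genes and -0.44 for the 9, and CDC20 alone stayed at least 2-fold lower. How far this background sets the low ratios of the dim genes was not tested.

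Among genes whose median net signal over their probes was 50 or more, the split was narrower. The 8 licensing and DNA synthesis genes there had a median of 0.51, and the other 4, CDK2, CDC25B, PLK1 and PTTG1, had a median of 0.02. With the minimum of 50 applied to single probes on both arrays instead, all 10 licensing and DNA synthesis genes were kept. The medians were then 0.28 and 0.02, a still narrower split. Under 50 by the median over probes were PCNA and RRM2 of the first set, which lay on either side of the middle. The brightest PCNA probe was far from background, at 780 and 397 with a log2 ratio of 0.26.

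**Figure D3:**
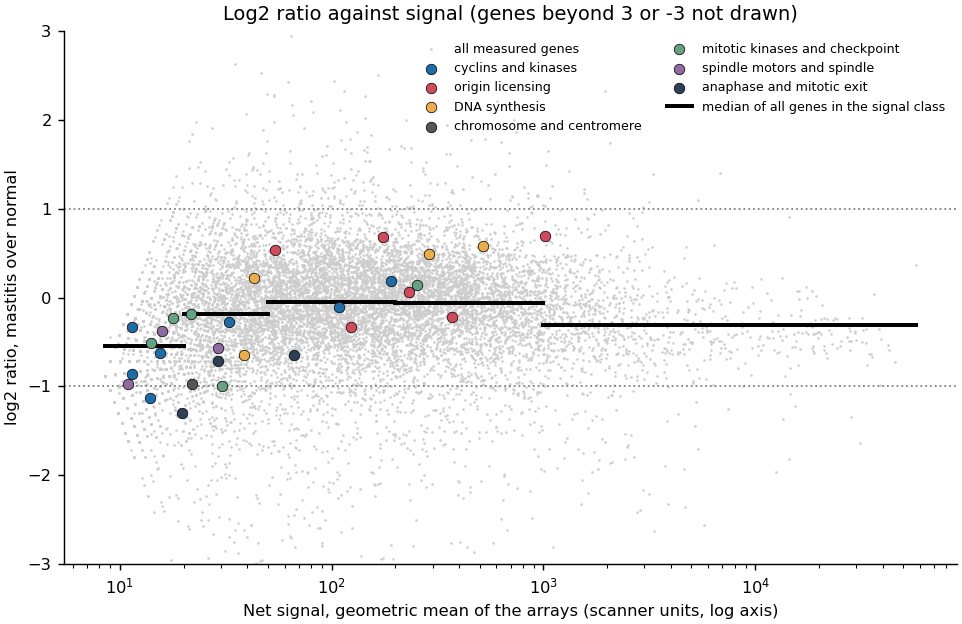
Log2 ratio of mastitis over normal (vertical axis) against the net signal as the geometric mean of both arrays in scanner units on a log axis (horizontal axis). Grey points are all measured genes within 3 log2 units of 0, large points are the 29 genes coloured by role, and black bars are the median of all genes in each signal class, from -0.55 under 20 to -0.05 between 50 and 200. The dim cyclin and mitosis genes lie where all genes lean low, and MCM7, GMNN, RRM1, MCM3 and TYMS lie above the bars of their classes.

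The scaling and the background correction moved the values of the 29 genes, so directions were read across settings. Left aside was the deposited log2 table as it stands, whose rows did not match the probes. Since a scaling shifts every gene alike, each log2 ratio was taken minus the median of all genes in the same setting. On this scale 21 of the 29 genes lay on 1 side in every other setting that measured them. Above were 8, namely MCM7 (0.75 to 1.28), GMNN (0.69 to 0.97), RRM1 (0.62 to 0.89), TYMS (0.49 to 0.78), MCM3 (0.26 to 0.83), PCNA (0.23 to 0.51), PLK1 (0.14 to 0.43) and MCM4 (0.03 to 0.65). Below were 13, among them CDC20 (-1.20 to -0.46), CCNE1 (-1.03 to -0.39), AURKB (-0.86 to -0.40), RRM2 (-0.69 to -0.31) and CDT1 (-0.34 to -0.04). AURKA, BUB1B, CCNA2, CDC25B, CDK1, CDK2, KIF23 and MCM5 changed sides in at least 1 setting. Settings that changed only the scaling cannot turn a gene on this scale. Leaving out saturated probes kept the median log2 ratio of the 29 at -0.33, as did naming by the gene name column alone. The dimmest genes were not measured under the higher signal minimums. Dim genes as a class also lay below the middle of all genes, so staying below it does not set a dim member apart. All genes under 20 had -0.55 against -0.15 as reported, and -0.465 against -0.198 with normexp. Taken minus the median of their own signal class, BIRC5, also among the 13, was at 0.04 and CDC20 at -0.75. All settings use the same arrays, so the sides say nothing of other cows.

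**Figure D4:**
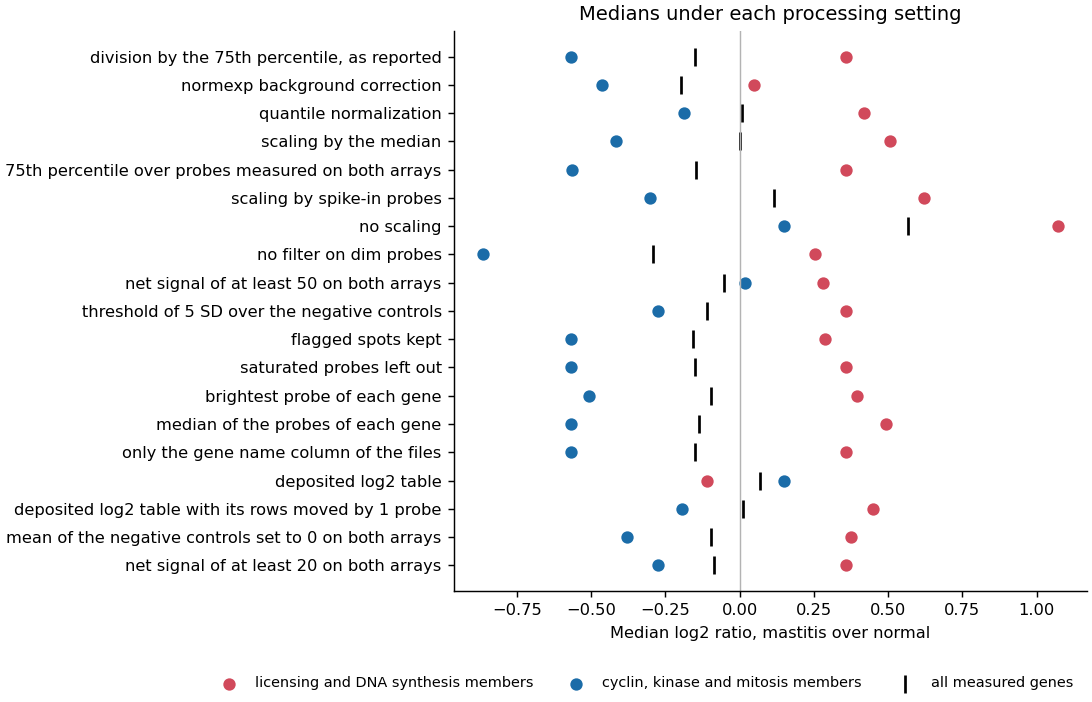
Median log2 ratio of mastitis over normal (horizontal axis) under each processing setting (rows) for the licensing and DNA synthesis genes (red), the cyclin, kinase and mitosis genes (blue) and all measured genes (black ticks). Red lies above blue in each setting but the deposited log2 table as it stands, and the medians go from 0.36 against -0.57 in the reported setting to 0.05 against -0.46 with normexp background correction and 0.28 against 0.02 with net signals of at least 50. Settings that change only the scaling cannot change the distance between red and blue.

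Other genes of the same pathways were listed by name to set the 29 in context. Of 59 further replication genes, 52 were measured, with a median log2 ratio of -0.15, equal to that of all genes, and 26 of them lay on either side of it. None was at least 2-fold higher. Low ones were PRIM1, a primase subunit (14 and 16, -0.91 ± 0.40), and POLA2, a subunit of the polymerase that starts new strands (12 and 12, -0.71 ± 0.48). The highest were CDC45, which joins the MCM helicase when it starts (391 and 177, 0.43 ± 0.17), RPA2, which coats single-stranded DNA (medians of 82 and 39, 0.34 ± 0.08, 7 probes), and LIG1, the ligase of new strands (1191 and 598, 0.28 ± 0.17).

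Of 98 further mitosis genes, 71 were measured, with a median log2 ratio of -0.29, and 44 lay below the middle of all genes. At least 2-fold lower were 7 (9.86%) and at least 2-fold higher were 2 (2.82%), shares near those of all measured genes. The lowest was MIS18A, which loads the centromeric histone, at 19 and 42 (-1.86 ± 0.28). NCAPH and NCAPG, subunits of condensin I, which compacts mitotic chromosomes, followed with 60 and 118.5 (-1.71 ± 0.13, 2 probes) and 154 and 281 (-1.58 ± 0.17). Both condensin genes lay far from the background, and their net signals were higher on the normal array even before scaling. The highest were TRIP13, a checkpoint remodeller at 31 and 9 (1.07 ± 0.47), STMN1, which destabilises microtubules, at 1856 and 555.5 (1.03 ± 0.12, 2 probes), and WEE1, the kinase that holds CDK1 inactive, at 153.5 and 49.5 (0.96 ± 0.15, 2 probes). TRIP13 rests on 1 probe, whose normal signal was just over the threshold of 8.74.

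Genes that hold the cycle back were measured in 19 of 21 cases, with a median log2 ratio of 0.08, and 12 lay above the middle of all genes. GADD45A, a stress gene that stops the cycle, was the 1 at least 2-fold higher (5.26%, against 2.26% of all genes), at 1604 and 411 (1.25 ± 0.12, 2 probes). CDKN1B, the inhibitor p27, had 686 and 248.5 (0.82 ± 0.14) and CDKN1C, the inhibitor p57, had 1723 and 673 (0.64 ± 0.17). CDKN2B, the inhibitor p15, at 9 and 15 (-1.45 ± 0.53), and BTG2, an antiproliferative gene, at 104 and 152 (-1.06 ± 0.11, 3 probes), were at least 2-fold lower (10.5%, against 9.14% of all genes). The next lowest was CDKN1A, the inhibitor p21, at -0.31 (medians of 237 and 101.5), but its 2 probes differed by an SD of 1.28.

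The genes of entry into the cycle, measured in 12 of 18 cases, had a median log2 ratio of 0.14 and none was 2-fold apart. TFDP1, a partner of the E2F factors (265 and 124, 0.38 ± 0.17), E2F4, a mostly repressive E2F (779 and 366, 0.38 ± 0.17), and MYC (375 and 172.5, 0.37 ± 0.12) were highest. CDK6, a kinase of cyclin D (27 and 31, -0.91 ± 0.25), CCND2, a cyclin D (2129 and 1831, -0.50 ± 0.17), and SKP2, which marks p27 for degradation (46 and 36, -0.16 ± 0.12), were lowest. E2F1 was above background on the normal array alone, and E2F2, E2F3, E2F8 and CDC25A on neither.

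**Figure D5:**
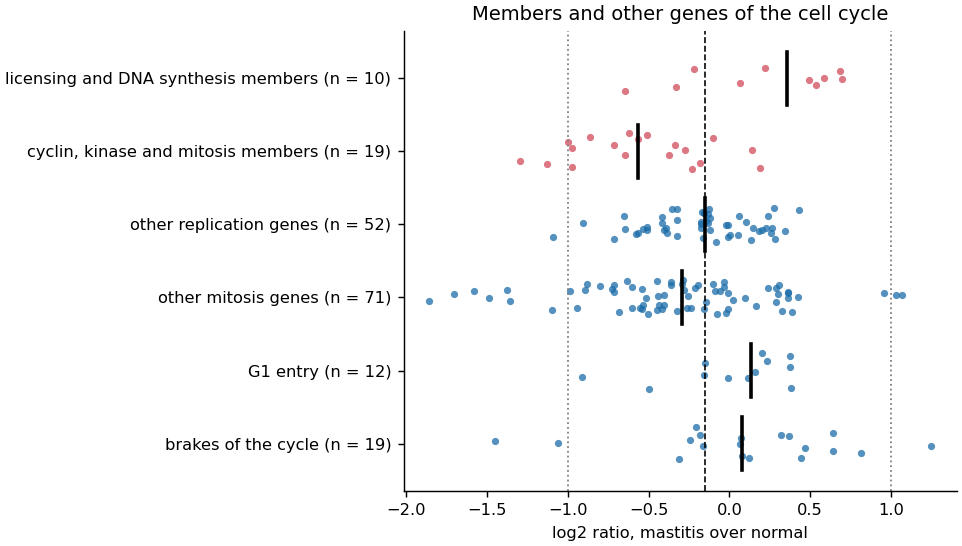
Log2 ratio of mastitis over normal (horizontal axis) of every measured gene (points, spread at random in height) in the 2 sets of the 29 genes (red) and in 4 further lists of cell cycle genes (blue), with the median of each list as a black bar. Dashed, the median over the measured genes of the array, and dotted, 2-fold differences. The 10 licensing and DNA synthesis genes centre on 0.36 and the 52 further replication genes on -0.15.

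Markers of several cell types also differed between the arrays. The 5 measured of 6 milk protein genes had a median log2 ratio of -7.45 and all were at least 2-fold lower in mastitis, with a summed scaled signal of 182.3 against 8663. All 14 luminal epithelium markers were measured and had a median of -0.12, with 1 lower. Fibroblast markers (9 of 9 measured) had a median of 0.70 with 1 lower and 1 higher, endothelium markers (9 of 9) 0.31 and myoepithelium markers (9 of 10) 0.23 with 1 lower. Of 10 measured macrophage markers of 12 listed, 6 were at least 2-fold higher, with a summed signal of 195 against 97.0. All 7 neutrophil markers measured, of 12 listed, were at least 2-fold lower, with a summed signal of 646 against 1462. Most of that sum was LTF, lactoferrin, which the gland epithelium also makes, and without it the other 6 summed to 23.0 against 73.9. In addition, neither array had CXCR2, MPO or CTSG well above background. T and NK cell markers (18 of 19) had a median of 0.03 with none 2-fold apart, and B and plasma cell markers (9 of 14) -0.41 with 2 lower and 1 higher. Erythroid markers (5 of 10) had a median of 0.27, but 2 of them, the globin genes HBB (3.54) and HBG (2.82), were at least 2-fold higher. The part of these shifts in the ratios of the replication and mitosis genes was not tested.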

How the data were processed

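Each array holds 45220 spots of 532 nm intensity. The authors deposited the net intensity of every spot, unscaled, from which the block's negative control mean had been subtracted per the file headers. They also deposited flags, the percent of pixels at saturation and a score of signal over noise. The spots that the headers name as this control were dark corners, with mean net signals of -0.38 (mastitis) and 0.43 (normal). The authors also deposited a table of log2 values with no stated method. Its column medians were 4.34 (mastitis) and 4.29 (normal), its direction follows the scanner signals, and its centring is not given. Its Spearman correlation with the net signal was 0.10 on the mastitis array row by row and 1.00 with its rows moved by 1 probe, so it served as an alternative. The labels' processing notes name Agilent Feature Extraction.

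Replicate spots were averaged, control spots dropped and saturated spots kept. Well above background means a net signal over the mean of the 153 negative controls by more than 2.6 SD in a spot not marked as not found, which held for 70.2% (mastitis) and 67.0% (normal) of probes. Signals were divided by the array's 75th percentile, and log2 ratios were averaged over the probes of a gene that both arrays measured. The pooled SD was 0.17 over replicate spots (41 probes) and 0.45 over the probes of a gene (6421 genes). The number of arrays, 1 per condition, limits the precision. Probes were named through a RefSeq table (assembly ARS-UCD2.0, no coordinates taken): 26743 by accession, 5971 by symbol, 528 by gene ID and 141 by synonym, while 1134 were left with their file name and 9136 with no gene. The members and all lists were chosen with earlier results of these data known. Both arrays' values are given for each member with a probe above background, and for the 3 highest and 3 lowest genes of each further list, with the brakes at least 2-fold apart. One gene that this rule selects is not reported here. Results were recomputed under 18 other settings, and under 2 more chosen after seeing the data. No promoter sequence was used, so motifs were not examined. The script was tested on simulated data whose negative controls had the same mean on both arrays, so that test did not cover the background difference between the real arrays. Tools were Python 3.11.15, pandas 2.3.3, numpy 2.4.6, scipy 1.17.1, matplotlib 3.10.9, R 4.3.3 and limma 3.58.1 (normexp with an offset of 50). Quantile normalization was computed in Python.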

Additional observations from a re-analysis of the deposited data

How the results depend on the processing

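No paired analysis was possible because each condition had 1 array and the labels give no replicate numbers. The median log2 ratio of the 29 genes, -0.33 as reported, was -0.57 with no filter on dim probes, -0.10 and 0.16 with net signals of at least 20 and at least 50, -0.0651 with quantile normalization, -0.0658 with spike-in scaling, 0.38 with no scaling, and 0.03 and -0.08 in the deposited log2 table as it stands and with its rows moved by 1 probe. The minimum of 20 and the zeroed negative controls were chosen after seeing the data. At least 2-fold lower were 7 of 35 with no filter (20.7% of all genes), 1 (CDC20 each time) with scaling by the median (6.69% of all genes), by spike-ins (5.65%), a 5 SD threshold (7.74%) or zeroed negative controls (7.95%), and 0 with normexp (3.27%), quantile normalization (6.14%), no scaling (2.64%), net minimums of 20 (7.13%) or 50 (6.16%) and the moved table (6.4%). At 1.5-fold there were 10 lower (21.5% of all genes) and 2 higher (7.65%), and at 3-fold 0 lower. At least 2-fold higher were 5 with no scaling (20% of all genes), 1 with no filter (2.71%) and 5 in the deposited table (12.3%). Below the middle of all genes lay 10 of 19, 5 of 14 and 11 of 21 with a minimum of 20, of 50 and the 5 SD threshold. Of 489 values of single genes under alternatives, 422 moved by less than the spread of probes, and 65 moved further. Of the 3 genes at least 2-fold apart, CCNE1 (1.75) and CDC20 (0.29) turned sign, both in the deposited table as it stands, whose rows did not match the probes. Smaller ratios turned sign more often.

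Medians of all genes were 0.11 with spike-ins, 0.56 with no scaling, 0.001 with scaling by the median and 0.007 with quantiles. For the further lists, spike-in scaling gave 0.11 (replication), -0.0309 (mitosis), 0.34 (brakes) and 0.40 (entry), and no scaling gave 0.56, 0.42, 0.79 and 0.85. The deposited table gave 0.12, 0 and -0.10 for replication, mitosis and entry, and -0.12 for mitosis once moved. A minimum of 20 gave -0.10 for mitosis and 0.31 for brakes, and one of 50 gave -0.077, 0.33 and 0.37 for mitosis, brakes and entry. The brightest probe gave 0.33 (brakes) and 0.32 (entry). Brakes were 0.25 with quantiles and 0.32 at 5 SD, and entry was -0.15 with no filter. The causes were not tested. Signal near background limits the cyclin and mitosis genes most, as 9 of the 29 genes had net signals under 20.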

Other observations

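MCM2 had no probe under the naming rule, but 3 probes are described as MCM2 in the files. They were looked up after the other values were seen and entered no count. Their net signals on the mastitis and normal arrays were 58 and 34 (log2 ratio 0.06), 20 and 16 (-0.39), and 15 and 23 (-1.33), so they disagreed in sign.

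The other condensin genes, chosen after NCAPG and NCAPH were seen to be low, did not share their ratios. NCAPD2, a further subunit of condensin I, had a log2 ratio of -0.28 over 3 probes with an SD of 0.74. SMC2 and SMC4, the core subunits, had -0.09 and 0.42. The condensin II subunits NCAPD3, NCAPG2 and NCAPH2 had -0.50, 0.29 and -0.06.

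Of the 98 further mitosis genes, those above background on a single array were KIF15, KIF18A, CDCA8, SGO1 and ANLN on the mastitis array and FOXM1, KIF4A and KIF14 on the normal array.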
